A study of Mus musculus with 22 samples.

Results

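Mutations or common variants in a small set of genes are linked to inherited glaucoma risk, and 10 such genes (Myoc, Optn, Tbk1, Cyp1b1, Foxc1, Cav1, Cav2, Gas7, Atxn2 and Six6) were followed by symbol among the 29367 genes of the count table. All 10 were detected and all 10 passed the filter on low counts in each comparison below.

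Myocilin (Myoc) is a secreted glycoprotein best known from the trabecular meshwork, where misfolded forms cause early-onset open-angle glaucoma. Optineurin (Optn) is a ubiquitin-binding autophagy receptor that the kinase TBK1 phosphorylates, and altered forms or extra copies of the pair are known from normal-tension glaucoma. Cyp1b1 encodes a cytochrome P450 enzyme whose loss causes congenital glaucoma, and Foxc1 encodes a forkhead transcription factor of anterior segment development. Cav1 and Cav2, Gas7, Atxn2 and Six6 lie at risk loci for open-angle glaucoma, eye pressure or optic disc shape.

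RNA bound to HA-tagged ribosomes was measured in the optic nerve head (ONH), the unmyelinated start of the nerve, and in the optic nerve proper (ONP), the myelinated stretch behind it. The mice were crosses of B6J.129(Cg)-Rpl22tm1.1Psam/SjJ, which carries the taggable ribosomal protein, with the B6.Cg-Tg (GFAP-Cre) line 73.12Mvs/J, in which a Gfap promoter drives Cre, and their genotype label was WT. They were 3 to 4 months old, and every group had received microbeads in the eye, which block fluid outflow and raise eye pressure. ONH and ONP were taken at day 7 (4 libraries each) and day 30 (7 libraries each), each library pooling 4 mice, 2 males and 2 females. No untreated library was analysed here, so a difference between days 7 and 30 has no baseline, and a batch of dissection or pulldown that follows the day cannot be told apart from it. Library preparation and sequencing were done together for all samples, per the study's methods. At day 30, an ONH and an ONP library with the same replicate number were dissected from a shared pool of animals and are called a pair. Those of day 7 are called by the number in their column header (ONH 1, 3, 5 and 6, ONP 1, 2, 5 and 6), which was not used to pair them. The study took both regions from the same mice, so day 7 libraries of ONH and ONP may share animals although they were tested as independent.

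Total counts ran from 16292489 to 33307092 per library. Levels are given as counts per 1000000 (CPM) after scaling by trimmed mean of M values. All 10 astrocyte markers checked were detected in every group, with sums from 16050 to 35330 CPM per library. Transcripts of other cells were present too. The sum of 8 oligodendrocyte markers was 13320 to 40130 CPM in ONH and 25530 to 108400 CPM in ONP. In ONP it was above the astrocyte sum in every library of day 7 and in all of day 30 but replicate 3. In ONH it was above in day 30 replicates 4, 5 and 7 and in day 7 libraries 5 and 6. The sum of 8 photoreceptor markers was 104.6 to 424.7 CPM in 6 ONH libraries of day 30 but 2277 CPM in replicate 4, and in ONH of day 7 it was 1425 CPM in library 5 and 5877 CPM in library 6. Values without those 3 ONH libraries are given beside several results. In RNA from pooled tissue, fewer cells of a type and less RNA per cell cannot be told apart.

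Members were called between regions at both days and, over time, in ONP alone. Counts of calls among the 10 genes are given beside the share of all genes called. At day 30, 5 of the 10 differed between ONH and ONP in edgeR's quasi-likelihood test (adjusted p under 0.05), with Foxc1, Cav1 and Six6 higher in ONH and Myoc and Tbk1 higher in ONP. The share of all tested genes called there was 41.8%, so a count of 5 is close to the background. At day 7, Cyp1b1 and Six6 were the 2 members called, both higher in ONH, beside 13.2% of all genes. These 5 and 2 calls all remained without the 3 ONH libraries of high photoreceptor sum. From day 7 to day 30, 3 members changed in ONP, where Myoc and Cyp1b1 rose and Cav1 fell, and 17% of all genes were called. In ONH edgeR called 0 members over the same interval and 0% of all genes. An unadjusted p under 0.05 was held by 2 of the 10 members (Tbk1 and Cav1), beside 2179 of 15668 genes tested. DESeq2 also called 0 members beside 2.48% of all genes. The change over time differed between ONP and ONH for 1 member, Myoc, beside 0.543% of all genes.

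**Figure D1:**
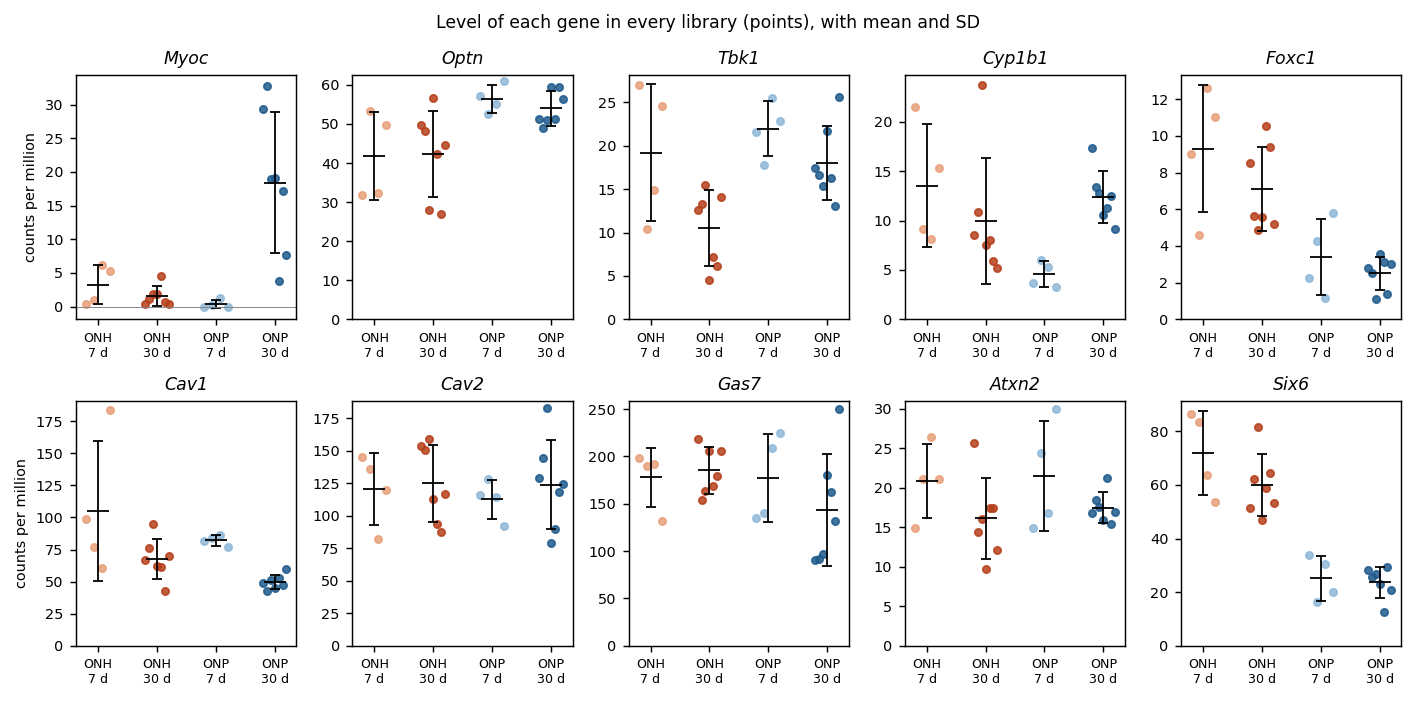
CPM of each of the 10 genes (y axis, from 0) in ONH and ONP at 7 and 30 days (x axis), 1 point per library, with bars for the mean and SD of 4 libraries at day 7 and 7 at day 30. Myoc in ONP rose from at most 1.28 CPM at day 7 to 3.86 to 32.8 CPM at day 30, and Six6 and Foxc1 were higher in ONH than in ONP at day 30 with no overlap.

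**Figure D2:**
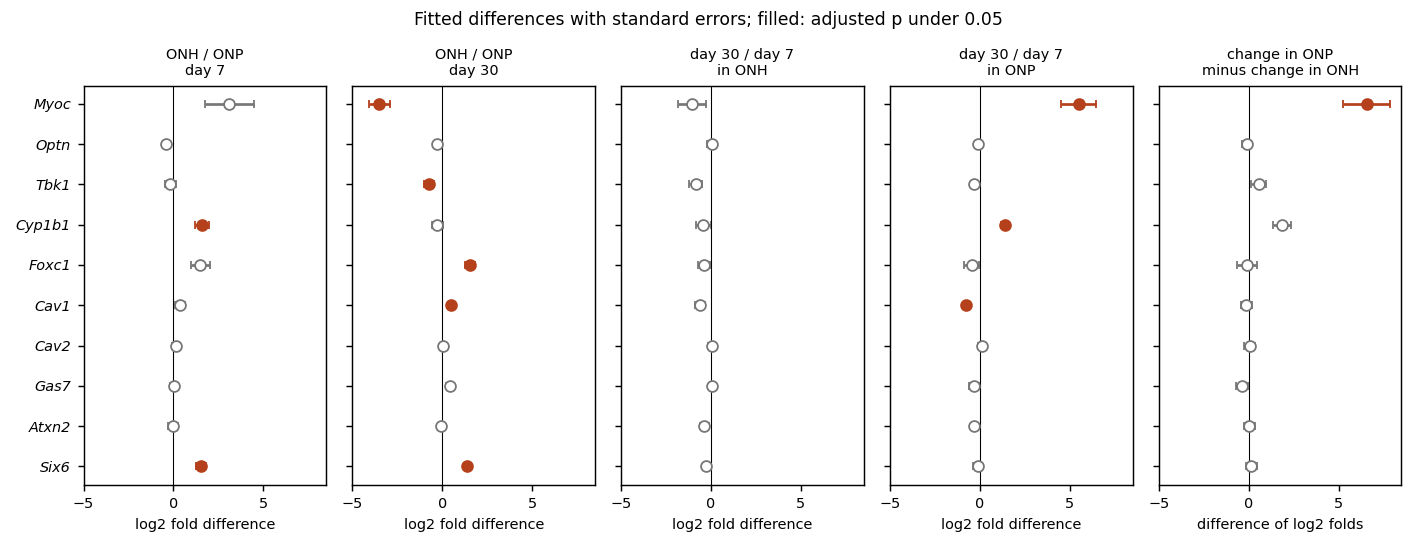
Fitted log2 fold differences (x axis, with standard errors) of the 10 genes in the 4 comparisons and in the difference of the time change between regions. Filled points passed an edgeR adjusted p of 0.05. Myoc stands at -3.51 for ONH against ONP at day 30 and at 5.49 for day 30 against day 7 in ONP.

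The groups' CPM ranges did not overlap for 2 members in ONH against ONP at day 30 (16.5% of all genes), 2 at day 7 (21.7%), 0 over time in ONH (2.25%) and 3 over time in ONP (12.1%). Per kilobase of exon, Cav2 had the highest mean level of the 10 in each group, from 33.8 to 37.4 CPM per kb. Cav1, Gas7, Six6 and Optn followed in ONH at both days, each overlapping its neighbour in range. Myoc moved most in this order: its mean level was the lowest of the 10 in ONP at day 7 (0.178 CPM per kb) and the fifth highest there at day 30 (8.87 CPM per kb). Foxc1 was lowest in ONP at day 30, at 0.429 CPM per kb, below the range of Atxn2, the next gene.

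The genes that rose in ONP, Myoc and Cyp1b1, differ in the letters before their start sites, which are shown because these members moved in the same direction. Myoc lies on the forward strand at chr1:162639155-162649693 and Cyp1b1 on the reverse strand at chr17:79701537-79715061 (GRCm38). The 250 bases before each RefSeq start (GRCm38.p6) are chr1:162638900-162639149 and chr17:79715062-79715311, printed 5′ to 3′ along the gene, with capitals marking TATAAA in Myoc and CACGC, the reverse strand of GCGTG, in Cyp1b1.
Myoc: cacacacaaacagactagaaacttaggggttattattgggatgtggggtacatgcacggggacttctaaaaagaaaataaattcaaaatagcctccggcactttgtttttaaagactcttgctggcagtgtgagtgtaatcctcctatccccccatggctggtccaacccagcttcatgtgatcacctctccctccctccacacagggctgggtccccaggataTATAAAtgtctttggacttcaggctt
Cyp1b1: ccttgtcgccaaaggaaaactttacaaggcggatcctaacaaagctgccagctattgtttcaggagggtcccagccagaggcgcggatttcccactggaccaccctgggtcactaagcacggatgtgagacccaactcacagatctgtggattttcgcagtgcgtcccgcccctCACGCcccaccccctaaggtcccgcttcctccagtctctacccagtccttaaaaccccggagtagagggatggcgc
TATAAA is the letters of a TATA box and GCGTG the core bound by the aryl hydrocarbon receptor (AHR), a ligand-activated factor known to drive Cyp1b1. Both strands were searched in windows that also took in 50 bases after the start. TATAAA occurred in 13.6% and GCGTG in 32.4% of 32851 mouse promoters of that length. The Myoc window held 2 CpG dinucleotides and 48.7% G or C, while that of Cyp1b1 held 16 and 58.3%. Promoter windows were matched for 9 of the 10 genes (Gas7 was not matched), and GCGTG was also found in those of Optn, Tbk1 and Foxc1, and TATAAA on the reverse strand in those of Cav1 and Atxn2.

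Myoc rose in ONP between days 7 and 30. At day 7 the ONP libraries held 0 counts (library 1), 3 counts (library 2), 31 counts (library 5) and 0 counts (library 6), or 0, 0.192, 1.28 and 0 CPM. At day 30 they ranged from 3.86 CPM (78 counts, replicate 5) over a median of 18.9 CPM to 32.8 CPM (759 counts, replicate 2). The lowest library of day 30 was above the highest of day 7. The mean went from 0.369 ± 0.617 CPM (SD, n = 4) to 18.4 ± 10.5 CPM (SD, n = 7), a fitted log2 fold change of 5.49 (SE 0.97, edgeR adjusted p = 0.00374). Since 91.2% of the day 7 counts came from library 5, the fold rests on very few reads: without that library it was 8.25 (adjusted p = 0.00182), and limma-voom with sample weights gave 7.10 with an adjusted p of 0.0546.

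In ONH, Myoc stayed at low levels at both days. The day 7 libraries stood at 0.437, 1.03, 6.13 and 5.27 CPM, and those of day 30 ranged from 0.351 over a median of 1.12 to 4.52 CPM. The higher pair of day 7 libraries were numbers 5 and 6, which also had the high photoreceptor sums. The log2 fold change from day 7 to 30 was -1.04 (SE 0.78, edgeR adjusted p = 0.561, 95% interval from -2.72 to 0.64), and without the ONH libraries of high photoreceptor sum it was 1.04 (adjusted p = 0.655).

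Compared directly, the Myoc change over time was larger in ONP than in ONH by 6.56 on the log2 scale (SE 1.31, edgeR adjusted p = 0.0271). This call was lost without ONP day 7 library 1 (adjusted p = 0.0667), library 2 (0.0808) or library 6 (0.0719), and without the 3 ONH libraries of high photoreceptor sum (4.52, adjusted p = 0.0746), and limma-voom gave an adjusted p of 0.17. DESeq2 called 2 members in this comparison, Myoc and Cyp1b1, beside 2.28% of all genes, and with the pairs of mice as a block edgeR also called both.

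At day 30 Myoc was 11.8-fold lower in ONH than in ONP by the ratio of means (log2 -3.51, SE 0.58, edgeR adjusted p = 0.000221). ONP was the higher member of 6 of the 7 pairs. The exception was pair 5, in which ONH stood at 4.52 and ONP at 3.86 CPM, the highest ONH and the lowest ONP value of that day. The ONP libraries with the least Myoc, replicates 5 and 7, had the highest microglia and macrophage sums of the group (3733 and 4671 CPM for 10 markers, against 252.9 to 1256 CPM in the other 5). The same libraries had the lowest astrocyte sums (16050 and 21960 CPM, against 24750 to 35330 CPM). Replicate 5 also had the highest oligodendrocyte and endothelial sums of the group. The part of any of these cells in the Myoc level was not tested. At day 7 the direction was the opposite, 3.10 on the log2 scale (SE 1.37), but this did not pass (edgeR adjusted p = 0.163), and it was 0.95 without the ONH libraries of high photoreceptor sum (adjusted p = 0.756).

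Over time in ONP, markers of other cells moved as well. Of 8 oligodendrocyte markers 6 fell, with sums of 80630 to 108400 CPM at day 7 and 25530 to 84460 CPM at day 30. Of 10 fibroblast markers of sclera and meninges 0 were called by edgeR (DESeq2 0), and their sums were 226.1 to 995.6 and 150.2 to 856.7 CPM. Of these markers 1 had an unadjusted p under 0.05, beside 5043 of 15491 genes tested. Of 8 endothelial markers 5 fell. Of 10 microglia and macrophage markers 0 were called (edgeR; DESeq2 0, and 0 at an unadjusted p under 0.05), with sums of 1581 to 2659 CPM at day 7 and 252.9 to 4671 CPM at day 30. No gene of these lists was at 0 in a whole group, and their part in the Myoc rise was not tested. Myoc shares 93 exon bases with Myocos on the opposite strand, which held at most 4 counts in any library.

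Other genes with the olfactomedin domain were compared as a list of 12 that leaves out Myoc. In ONP over time 1 of 11 tested fell, Olfml2b (log2 -0.53, SE 0.14, edgeR adjusted p = 0.0207), and 0 rose. Its call was lost without ONP day 7 library 1 (adjusted p = 0.0801) or 6 (0.0516), by library size scaling alone and with all groups in a single fit (0.0759). Between regions at day 30, 6 of 10 passed (60%, beside 41.8% of all genes), 4 higher in ONH and 2 lower. Olfm2, a secreted neuronal family member, was at 9.48 CPM in ONH and 39.9 CPM in ONP (log2 -2.03, SE 0.22, edgeR adjusted p = 4.958e-06). Olfml1 was lower in ONH at both days, by -1.54 at day 30 and -1.99 at day 7 on the log2 scale. The median log2 difference of the list at day 30 was 0.30, beside -0.01 over all genes.

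Cyp1b1, which oxidises steroids, retinoids and xenobiotics, also rose in ONP with time. Its ONP libraries of day 7 stood at 3.67, 6.01, 5.30 and 3.26 CPM, and those of day 30 ranged from 9.10 over a median of 12.4 to 17.4 CPM. The groups did not overlap. Means of 4.56 ± 1.31 CPM (SD, n = 4) and 12.4 ± 2.63 CPM (SD, n = 7) gave a log2 fold change of 1.41 (SE 0.23, edgeR adjusted p = 0.00258), which passed without any single library.

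The ONH level of Cyp1b1 was more spread. At day 7 its ONH libraries stood at 21.5, 9.09, 8.16 and 15.4 CPM, all above those of ONP (log2 1.59, SE 0.39, edgeR adjusted p = 0.0237). Without the ONH libraries of high photoreceptor sum it was 1.73 (adjusted p = 0.0288). That call was lost without ONH library 1 (adjusted p = 0.0596) and without ONP library 1 (0.0706), 5 (0.0563) or 6 (0.0799). At day 30 ONH ranged from 5.15 over a median of 8.03 to 23.7 CPM and overlapped ONP, with a log2 difference of -0.28 (95% interval from -0.90 to 0.34, edgeR adjusted p = 0.47). The highest of these was replicate 3, the only one of 7 pairs in which ONH was the higher, and without it the difference was -0.64 (adjusted p = 0.0163). Replicate 3 also had the highest sum of 8 mural cell markers of its group, in which sums were 204.2 to 739.2 CPM. At day 7 mural sums were 477.1 to 855.6 CPM in ONH and 122.2 to 194.2 CPM in ONP. Over time in ONP, 2 of 7 mural markers fell and 0 rose, while Cyp1b1 rose. The part of mural RNA in the Cyp1b1 level was not tested.

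The time change of Cyp1b1 in ONP exceeded that in ONH by 1.85 on the log2 scale (SE 0.49), which did not pass in the fit without pairs (edgeR adjusted p = 0.0813) and passed with the pairs of mice as a block (2.00, adjusted p = 0.0452). Of 22 edgeR fits without 1 library it passed in 2, without ONH day 30 replicate 3 (2.24, adjusted p = 0.00997) and without ONH day 7 library 5 (2.02, adjusted p = 0.0387). The largest adjusted p of these fits was 0.196, without ONP day 7 library 6. With limma-voom the adjusted p was 0.0712. In ONH alone the change was -0.43 (SE 0.41, edgeR adjusted p = 0.659).

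Among 21 genes of AHR signalling and retinoid metabolism, 16 were tested in ONP over time, of which 2 were called higher and 3 lower (31.2%, beside 17% of all genes). Cyp1b1 is not in the list. Of the 5 called, Cyp26b1 (higher) lost its call in 9 of 11 fits without 1 library (adjusted p up to 0.111) and in 4 of 7 with other processing. Arnt (lower) lost its call in 8 of 11 (adjusted p up to 0.13) and in 6 of 8. Por, the reductase that supplies P450 enzymes with electrons, fell from 298.5 to 190.9 CPM (log2 -0.68, SE 0.11, edgeR adjusted p = 0.00252). Its call was lost in 1 of 8 fits with other processing. Aldh1a3, a retinaldehyde dehydrogenase, fell from 1.92 to 0.306 CPM (log2 -2.64, SE 0.62, edgeR adjusted p = 0.0143). This call was lost in 1 of 10 fits without 1 library (adjusted p = 0.0526) and in 1 of 7 with other processing. Between regions at day 30, 4 of 16 were higher in ONH and 1 lower (31.2%, beside 41.8%). The retinol dehydrogenase Rdh10 was higher in ONH by 2.01 on the log2 scale. At day 7, without the libraries of high photoreceptor sum, 2 of 17 were higher in ONH and 0 lower, beside 15.3% of all genes. With all libraries, 4 of 16 were higher in ONH and 0 lower (25%, beside 13.2%). Of the 4, the retinoic acid hydroxylase Cyp26a1 averaged 1.23 CPM in ONH and was listed at 0 in every ONP library.

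Cav1, the structural protein of caveolae, the small pits of the plasma membrane, fell in ONP with time. Its ONP libraries of day 7 stood at 81.5, 84.0, 86.0 and 76.7 CPM, and those of day 30 ranged from 43.0 over a median of 49.0 to 59.6 CPM. The groups did not overlap, and day 7 was the tighter. Means of 82.0 ± 4.03 CPM (SD, n = 4) and 49.7 ± 5.46 CPM (SD, n = 7) gave a log2 fold change of -0.76 (SE 0.09, edgeR adjusted p = 0.000599).

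Endothelial cells are rich in Cav1, and their markers fell over the same interval in ONP. Of 8 endothelial markers 5 passed, all lower at day 30, and the sum was 116.5 to 152.4 CPM at day 7 and 9.80 to 92.6 CPM at day 30. No endothelial marker was at 0 in a whole group. The part of endothelial RNA in the fall of Cav1 was not tested.

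**Figure D3:**
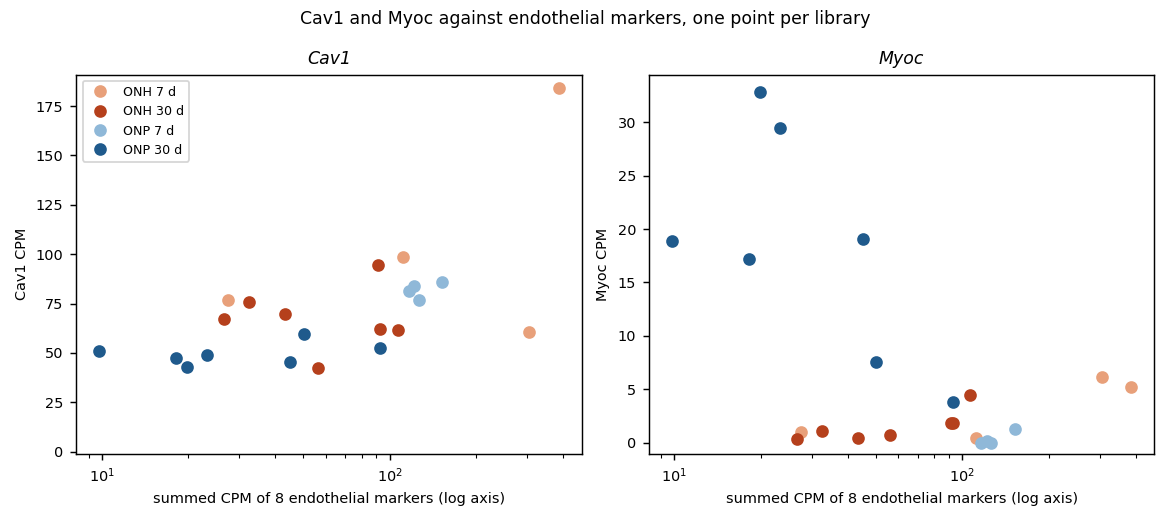
Cav1 (left) and Myoc (right) in CPM (y axis) against the summed CPM of 8 endothelial markers (x axis, log scale), 1 point per library, coloured by group. The ONP libraries of day 7 sit at 116.5 to 152.4 CPM of endothelial markers and 76.7 to 86.0 CPM of Cav1, to the right of and above those of day 30, and ONH day 7 library 6 is the highest in both, at 387.1 and 183.9 CPM.

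In ONH, Cav1 at day 7 stood at 98.7, 76.9, 60.6 and 183.9 CPM, the last in library 6, and ranged at day 30 from 42.5 over a median of 67.1 to 94.7 CPM. The groups overlapped and the log2 change was -0.62 (SE 0.27, edgeR adjusted p = 0.327). It was -0.22 without library 6. The changes in ONP and ONH differed by -0.13 (95% interval from -0.74 to 0.48, edgeR adjusted p = 0.916). At day 30 Cav1 was higher in ONH than in ONP by 0.49 on the log2 scale (SE 0.14, edgeR adjusted p = 0.011) and in 6 of 7 pairs, with pair 6 the exception. At day 7 the difference was 0.37 (SE 0.29, edgeR adjusted p = 0.429), and 0.08 (adjusted p = 0.776) without the ONH libraries of high photoreceptor sum. Endothelial sums at day 30 were 26.6 to 106.8 CPM in ONH and 9.80 to 92.6 CPM in ONP, with 2 of 8 markers higher in ONH, and their part was not tested.

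Cav2, which assembles with Cav1, passed in no comparison. It lies beside Cav1, at chr6:17281185-17289115 against chr6:17306335-17341452 (GRCm38, both forward strand). ONP held 115.7, 128.2, 114.6 and 91.9 CPM of Cav2 at day 7 and 79.1 to 183.1 CPM, with a median of 124.2, at day 30. The day 7 range lay inside that of day 30, with a log2 change of 0.10 (95% interval from -0.32 to 0.53, edgeR adjusted p = 0.761). In ONH the ranges were 81.9 to 145.1 CPM at day 7 and 87.1 to 159.1 CPM at day 30, with a change of 0.06 (95% interval from -0.38 to 0.49). Differences between regions were 0.05 at day 30 (95% interval from -0.35 to 0.44) and 0.12 at day 7 (95% interval from -0.31 to 0.56).

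Other genes of caveolae were counted as a list. Of 12 tested out of 14 listed, 7 were higher and 3 lower in ONH at day 30 (83.3%, beside 41.8% of all genes), with a median log2 difference of 0.56 beside -0.01 over all genes. The coat proteins Cavin1 (799.7 against 432.1 CPM, log2 0.93, SE 0.15) and Cavin3 (440.5 against 237.5 CPM, log2 0.93, SE 0.11) were higher in ONH. Cavin2 showed the smallest p of the list, at 68.3 CPM in ONH and 21.6 CPM in ONP (log2 1.70, SE 0.13, edgeR adjusted p = 2.235e-07). At day 7, 4 of 12 were higher and 1 lower in ONH (41.7%, beside 13.2%), and these included Cavin1, Cavin2 and Cavin3 again, with the call of Cavin3 lost in 4 of 8 fits without 1 library (adjusted p up to 0.0744). In ONP over time 3 of 12 fell and 0 rose (25%, beside 17%), among them Cavin2, from 57.6 to 21.6 CPM (log2 -1.45, SE 0.15, edgeR adjusted p = 0.000351). At day 30, 2 of 8 endothelial, 3 of 7 mural and 2 of 10 fibroblast markers were higher in ONH, and 1 mural marker was lower. In ONP over time 5 of 8 endothelial, 2 of 7 mural and 0 of 10 fibroblast markers fell. The part of these cells in the caveola list was not tested.

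Tbk1, the kinase that activates optineurin and interferon signalling, was lower in ONH than in ONP at day 30. ONH ranged from 4.50 (replicate 4) over a median of 12.6 to 15.5 CPM and ONP from 13.1 over a median of 16.6 to 25.7 CPM. ONH libraries 4, 5 and 6 lay well under the lowest ONP value and the other 4 lay near it, so the groups overlapped. Means of 10.5 ± 4.39 and 18.0 ± 4.25 CPM (SD, n = 7 each) gave a log2 difference of -0.74 (SE 0.26, edgeR adjusted p = 0.0317), with ONP higher in 6 of 7 pairs. Without ONH replicate 4, the library with the high photoreceptor sum, it was -0.61 (adjusted p = 0.0471). The call was lost without ONH replicate 5 (adjusted p = 0.0628) or 6 (0.0537), or without ONP replicate 4 (0.0592) or 7 (0.0672).

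At day 7 Tbk1 stood at 27.0, 10.4, 14.9 and 24.5 CPM in ONH and at 21.6, 17.8, 25.5 and 22.8 CPM in ONP. The ONH libraries spanned the whole ONP range, with a log2 difference of -0.17 (95% interval from -0.84 to 0.50, edgeR adjusted p = 0.754). Over time the log2 change was -0.87 in ONH (SE 0.36, edgeR adjusted p = 0.315) and -0.32 in ONP (SE 0.18, edgeR adjusted p = 0.229), and neither passed.

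Optn leaned to ONP without passing. At day 30 it ranged from 27.0 over a median of 44.5 to 56.6 CPM in ONH and from 48.8 over a median of 51.4 to 59.5 CPM in ONP. ONP was the higher in 7 of 7 pairs, by as little as 0.02 and as much as 1.13 on the log2 scale, while the fitted difference was -0.31 (SE 0.15, edgeR adjusted p = 0.116) and -0.39 (adjusted p = 0.0455) without ONH replicate 4. At day 7 the ONH libraries held 31.8, 53.4, 32.4 and 49.7 CPM and those of ONP 57.1, 52.5, 55.1 and 61.0 CPM, a difference of -0.41 (SE 0.20, edgeR adjusted p = 0.216). Time changes were 0.03 in ONH (95% interval from -0.47 to 0.53) and -0.10 in ONP (95% interval from -0.28 to 0.09).

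**Figure D4:**
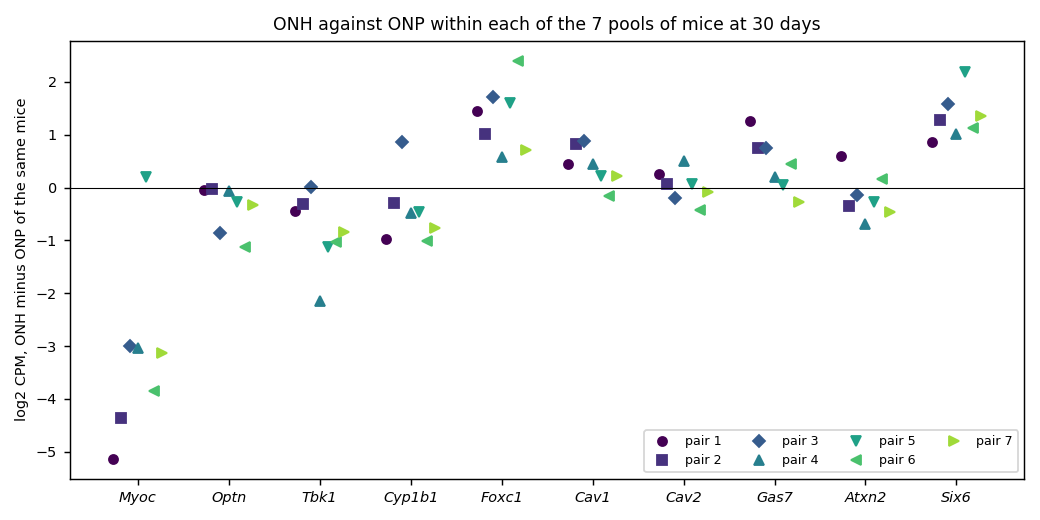
Difference of log2 CPM between ONH and ONP of the same pool of mice at day 30 (y axis) for each of the 10 genes (x axis), 1 symbol per pair. All 7 pairs lie above 0 for Foxc1 and Six6 and below 0 for Optn, and pair 5 alone lies above 0 for Myoc.

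Autophagy receptors and partners of TBK1 were tested as 41 of 42 listed genes. At day 30, 6 were higher and 16 lower in ONH, 53.7% of the list beside 41.8% of all genes, with a median log2 difference of -0.26. Lower in ONH too were 7 of 8 oligodendrocyte and 5 of 6 oligodendrocyte precursor markers, with sums given above for the former, and their part in these differences and in that of Tbk1 was not tested. Atg9a, the scramblase of growing autophagosomes, was at 30.3 CPM in ONH and 65.3 CPM in ONP (log2 -1.07, SE 0.20, edgeR adjusted p = 0.00068). Irf3, the transcription factor that TBK1 phosphorylates, was higher in ONH (32.5 against 23.1 CPM, log2 0.54, SE 0.09, edgeR adjusted p = 0.000286), as was the TBK1 adaptor Azi2 (49.5 against 34.3 CPM). At day 7, 3 of 41 passed, all lower in ONH, where the background was 13.2%, among them Myo6, a motor that binds optineurin (72.7 against 187 CPM, log2 -1.34, SE 0.15, edgeR adjusted p = 0.00042), and the receptor Nbr1. Without the ONH libraries of high photoreceptor sum 3 of 41 were higher and 5 lower, beside 15.3% of all genes. In ONP over time 3 rose and 5 fell (19.5%, beside 17% of all genes). Myo6 fell to 106.9 CPM (log2 -0.84, SE 0.12) and Nbr1 from 194.7 to 143.2 CPM.

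Six6, a homeobox factor of the developing retina and optic nerve, was higher in ONH than in ONP at both days. At day 7 it stood at 86.4, 83.6, 63.8 and 53.8 CPM in ONH and at 33.7, 16.2, 30.5 and 19.9 CPM in ONP. At day 30 ONH ranged from 46.8 over a median of 58.9 to 81.8 CPM and ONP from 12.5 over a median of 25.5 to 29.2 CPM. The regions did not overlap at either day. Log2 differences were 1.55 at day 7 (SE 0.27, edgeR adjusted p = 0.00424) and 1.38 at day 30 (SE 0.17, edgeR adjusted p = 2.333e-05), and ONH was the higher in 7 of 7 pairs.

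Photoreceptor markers, which mark retinal tissue, were higher in ONH too, 7 of 8 at day 7 and 8 of 8 at day 30. Photoreceptor sums were 162.7 to 5877 CPM in ONH against 9.28 to 130.2 CPM in ONP at day 7 and 104.6 to 2277 against 2.59 to 51.9 CPM at day 30. Pigment cell markers followed the same pattern, with 7 of 9 higher in ONH at each day. Without the ONH libraries of high photoreceptor sum the Six6 difference was 1.74 at day 7 (edgeR adjusted p = 0.00431) and 1.43 at day 30 (edgeR adjusted p = 3.93e-05). The other ONH libraries of day 30 still held 104.6 to 424.7 CPM of photoreceptor markers, above every ONP library of that day, and the part of retinal RNA in the Six6 difference was not tested.

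Six6 did not pass over time, with log2 changes of -0.26 in ONH (95% interval from -0.64 to 0.13) and -0.12 in ONP (95% interval from -0.65 to 0.41). Of its exon bases 192 are shared with 4930447C04Rik on the opposite strand, which held 0.384 to 2.80 CPM, and reads from that stretch cannot be told apart without strand.

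Foxc1 was also higher in ONH, at lower levels. At day 30 ONH ranged from 4.87 over a median of 5.65 to 10.5 CPM and ONP from 1.13 over a median of 2.79 to 3.58 CPM, with no overlap. The log2 difference was 1.54 (SE 0.28, edgeR adjusted p = 0.000529), and ONH was the higher in 7 of 7 pairs. At day 7 the ONH libraries stood at 9.01, 4.62, 12.6 and 11.0 CPM and those of ONP at 2.26, 4.28, 1.16 and 5.79 CPM. Only ONH library 3 fell within the ONP range, and the difference of 1.50 (SE 0.53) did not pass in edgeR (adjusted p = 0.0892), whereas DESeq2 gave an adjusted p of 0.0319. The higher pair of ONH values, 12.6 and 11.0 CPM, came from libraries 5 and 6 of high photoreceptor sum, and without them the difference was 0.999 (adjusted p = 0.327). Fibroblast and mural cells are known to express Foxc1. At day 30, 2 of 10 fibroblast markers and 3 of 7 mural markers were higher in ONH and 1 mural marker was lower, and fibroblast sums were 573.4 to 1121 CPM in ONH against 150.2 to 856.7 CPM in ONP. Mural sums were 204.2 to 739.2 against 105.5 to 233.7 CPM, no marker of either list was at 0 in a whole group, and their part in the Foxc1 difference was not tested. Time changes of Foxc1 were -0.39 in ONH (95% interval from -1.09 to 0.32) and -0.46 in ONP (95% interval from -1.40 to 0.48).

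Eye development transcription factors were tested as a list of 29 genes in the table. At day 30, 20 had enough counts and 9 were higher and 1 lower in ONH (50%, beside 41.8% of all genes), with a median log2 difference of 0.82 beside -0.01 over all genes. The photoreceptor and pigment cell markers above were higher in ONH as well, and their part in this list was not tested. Without the ONH library of high photoreceptor sum, 7 of 20 were higher and 1 lower, beside 39.2% of all genes, with a median of 0.71. Rax, a regulator of the eye field, was at 17.9 CPM in ONH and 3.10 CPM in ONP (log2 2.56, SE 0.39, edgeR adjusted p = 0.000106). Vax2, which patterns the ventral retina, differed by 2.95 and Pax2, a factor of optic stalk and nerve head astrocytes, by 1.71 on the log2 scale. At day 7, 8 of 16 were higher in ONH and 0 lower (50%, beside 13.2%), led by Rax (21.3 against 1.86 CPM). Without the libraries of high photoreceptor sum 5 of 22 were higher and 0 lower, beside 15.3% of all genes. In ONP over time 1 of 17 passed, Lhx2, which rose from 11.5 to 18.9 CPM (log2 0.68, SE 0.20, edgeR adjusted p = 0.0393). This call was lost in 7 of 11 fits without 1 library (adjusted p up to 0.103) and with all groups in a single fit (0.0925).

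Gas7, an F-BAR protein that bundles actin, had the highest CPM of the 10 genes in each group. It passed in no comparison of edgeR with all libraries and without pairs. At day 30 it ranged from 153.4 over a median of 178.9 to 218.8 CPM in ONH and from 90.9 over a median of 131.8 to 250.4 CPM in ONP. ONP was split, with replicates 1, 2 and 3 under 100 CPM and replicate 7 above every ONH library. The log2 difference of 0.42 (SE 0.20, edgeR adjusted p = 0.112) became 0.49 (adjusted p = 0.0229) with the pairs of mice as a block, 0.57 (adjusted p = 0.0318) by limma-voom with sample weights and 0.60 (adjusted p = 0.0115) without ONP replicate 7. The block and limma-voom were the 2 of 10 other settings that passed. Of 14 edgeR fits without 1 library, 1 passed, and the largest adjusted p was 0.223, without ONH replicate 1. ONH was the higher in 6 of 7 pairs. At day 7 ONH stood at 198, 189.9, 191.7 and 131.7 CPM and ONP at 134.4, 140.3, 209.2 and 224.8 CPM, a difference of 0.04 (95% interval from -0.44 to 0.52).

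Atxn2, an RNA-binding protein of stress granules, passed in no comparison. Its ONH libraries held 14.9, 21.0, 26.4 and 21.0 CPM at day 7 and 9.68 to 25.7 CPM, with a median of 16.0, at day 30. In ONP it held 14.9, 24.4, 16.8 and 30.0 CPM at day 7 and 15.4 to 21.2 CPM, with a median of 16.9, at day 30. All 4 ranges overlapped. Regional differences were -0.08 at day 30 (95% interval from -0.45 to 0.29) and -0.01 at day 7 (95% interval from -0.64 to 0.61), and time changes were -0.37 in ONH (95% interval from -0.92 to 0.17) and -0.33 in ONP (95% interval from -0.72 to 0.05). Atxn2 shares 99 exon bases with Sh2b3 on the opposite strand, which held 3.45 to 28.4 CPM.

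Of 19 genes of ataxin-2 partners and stress granules, 7 were higher and 3 lower in ONH at day 30 (52.6%, beside 41.8% of all genes), with a median log2 difference of -0.07. There the poly(A)-binding protein Pabpc1 was at 90.7 CPM in ONH and 51.9 CPM in ONP (log2 0.85, SE 0.17, edgeR adjusted p = 0.00114) and Caprin1 was lower in ONH (92.3 against 132.3 CPM). At day 7, 2 of 19 were lower in ONH (10.5%, beside 13.2%), Atxn2l and Caprin1, and leaving out 1 library ended the call of Caprin1 in 7 of 8 fits (adjusted p up to 0.125) and that of Atxn2l in 1 of 8. In ONP over time 4 of 19 fell and 0 rose (21.1%, beside 17%), among them the paralogue Atxn2l, from 35.6 to 23.7 CPM (log2 -0.62, SE 0.11, edgeR adjusted p = 0.00396). The 21 F-BAR and WASP family genes tested share the domain of Gas7 or act on the actin nucleator it binds. Of these, 5 were higher and 4 lower in ONH at day 30 (42.9%, beside 41.8% of all genes). At day 7, 2 were higher and 4 lower (28.6%, beside 13.2%). Fnbp1 then stood at 152 CPM in ONH and 495.4 CPM in ONP (log2 -1.68, SE 0.15, edgeR adjusted p = 0.000224). Pstpip1 was the 1 gene of this list called over time in ONP (4.76%, beside 17%), and it rose from 6.04 to 10.7 CPM.

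Other genes linked to glaucoma were counted as 36 in the table. At day 30, 10 of 31 tested were higher and 2 lower in ONH, and this share of 38.7% was below the 41.8% of all genes. The cell cycle inhibitor Cdkn2b was at 76.8 CPM in ONH and 26.6 CPM in ONP (log2 1.57, SE 0.16, edgeR adjusted p = 3.058e-06), and the matricellular protein Thbs1 at 8.58 and 1.26 CPM. At day 7, without the ONH libraries of high photoreceptor sum, 3 of 32 were higher and 3 lower, beside 15.3% of all genes. With all libraries, 6 of 30 were higher and 1 lower (23.3%, beside 13.2%). Among the 6 was Loxl1, a cross-linker of elastin, at 13.8 CPM in ONH and 4.33 CPM in ONP (log2 1.69, SE 0.42, edgeR adjusted p = 0.0244), a call lost in 4 of 8 fits without 1 library (adjusted p up to 0.0687) and without both ONH libraries of high photoreceptor sum (0.0992). In ONP over time 3 of 29 fell and 0 rose (10.3%, beside 17%): Cdkn2b from 47.7 to 26.6 CPM, the mitochondrial fusion gene Opa1 from 48.3 to 31.1 CPM (log2 -0.67, SE 0.13, edgeR adjusted p = 0.00688) and the angiopoietin receptor Tek from 15.1 to 3.23 CPM, a call that 3 of 11 fits without 1 library lost (adjusted p up to 0.0702). In ONH over time edgeR called 0 genes of any of these 8 lists, with 3 to 6 per list at an unadjusted p under 0.05. Of all genes tested, 2179 of 15668 had such a p. DESeq2 called at most 1 per list, beside 2.48% of all genes.

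The genes most like each called member were sought among 16747 others, by the correlation of log2 CPM over the 22 libraries after the mean of each group was taken out. All points come from the same libraries and share depth and scaling, so these are descriptions. Myoc was most like Aplnr (Pearson r = 0.86), Emx2os (0.85) and Dlk1 (0.81), and Cyp1b1 most like Cdh11 (0.86), D3Ertd254e (0.84) and Fam222b (0.83). For Cav1 the leading genes were Tcn2 (0.90), Cpsf6 (0.90) and Myo1c (0.89), for Tbk1 Thumpd3 (0.87), Larp4 (0.82) and Atl3 (0.81). Foxc1 was closest to Sfxn2 (0.84), Eif4b (0.83) and Arid5b (0.82), and Six6 to Ndn (0.82), Tubb2a (0.82) and Samd12 (0.82). Without the 2 libraries farthest from the median of each member, r was 0.695 to 0.842 over these 18 genes. Among the members themselves Tbk1 and Cav1 were the closest (r = 0.61), ahead of Cyp1b1 and Cav2 (0.563).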

How the data were processed

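Ribosome-bound polyA RNA of ONH and ONP was sequenced in 22 libraries (16292489 to 33307092 counts each), prepared with a Smart-Seq kit that does not mark strand. The authors aligned reads to mm10 with STAR 2.6.1d, estimated transcript abundance with Salmon 0.14.2 and summed it per gene, and the deposited table holds these estimated counts as whole numbers. A further deposited table holds log2 values that the authors made by variance stabilization in DESeq2 1.34.0 under R 4.1.0.

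Counts were compared with the quasi-likelihood test of edgeR 4.0.16 (limma 3.58.1, R 4.3.3) after filterByExpr and TMM scaling, in the 2 groups compared or, for the difference of time changes, in all 4. Benjamini-Hochberg adjustment ran over all genes tested, at 0.05. Standard errors of edgeR fold changes were derived as the absolute log2 fold change over the square root of the quasi-likelihood F. The 95% intervals are built from these standard errors with a t quantile. CPM shown are TMM-scaled over all 22 libraries, with 0.5 CPM added for log2 values. Scripts were tested on simulated data. Since all 10 genes passed the filter in each fit, no exact permutation test of single genes was needed.

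Genes were matched by symbol, positions came from GENCODE M21 and promoters from RefSeq (GRCm38.p6). The members and lists were chosen with earlier results of these data known. All members are named. In lists, named genes come from the up to 4 of smallest p among those called, and for each called member the 3 of highest correlation are given. By the study's methods, ONH and ONP were taken from the same mice. At day 30 deviations from group means correlated within each of the 7 pairs (r = 0.105 to 0.538), so that a fit with the pairs as a block was run. At day 7 pairs could not be formed, and the regions were tested as if independent.

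Alternatives were RLE size factors, library size alone, other count filters, DESeq2 1.42.0, limma-voom with sample quality weights, limma on the deposited log2 values, all 4 groups in a single fit, the block, and leaving out each library. A fit without the ONH libraries above 1000 CPM of photoreceptor markers was added after the data were seen. Day 7 columns carry numbers that could not be tied to single samples within a group. Pools differ between libraries of a group, so p-values measure spread between pools. Some genes that the rule names are not reported here.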

Additional observations from a re-analysis of the deposited data

Results flagged for a closer look

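In a screen of 40 sets of libraries (10 genes in 4 groups) for a library far from the rest of its group, 2 stood apart, and chance alone marks about 1 in 20 such sets. Gas7 in ONH day 7 library 6 was at 131.7 CPM, below the next library at 189.9 CPM, and that library also had the highest photoreceptor sum, 5877 CPM. Six6 in ONP day 30 replicate 5 was at 12.53 CPM, below the next at 20.64 CPM, and that library had the highest oligodendrocyte and endothelial sums of its group (84460 and 92.65 CPM). The Myoc change from day 7 to 30 differed between ONP and ONH by 6.56 on the log2 scale in a test of the difference itself (edgeR adjusted p = 0.0271).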

How the results depend on the processing

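Of 1105 refits of the members' fold changes, 1016 kept direction and side of the threshold, 14 lost a call and 13 gained one. In 62 the direction turned, all for changes that had not passed. The cause of these shifts was not tested. The day 7 ONP libraries held 34 counts of Myoc in all.

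The number of members called in ONH against ONP at day 7 was 2, against 4 with all groups in a single fit (Myoc 3.05, adjusted p = 0.0386; Foxc1 1.48, adjusted p = 0.0218), and leaving out single libraries gave 1 to 2. For the difference of time changes, 1 member was called, against 0 with at least 10 counts in every sample (Myoc is then not tested), 0 by limma-voom, 0 without the ONH libraries of high photoreceptor sum, 2 by DESeq2 and 2 with the replicate block. Leaving out single libraries gave 0 to 2. In ONH over time the count was 0 in every leave-one-out fit. Counts over all genes moved too. DESeq2 called 3203 genes against 1940 at day 7 and 409 against 91 for the difference of time changes, where 441 were called without the ONH libraries of high photoreceptor sum, 55 by limma-voom and 50 without the count filter. A single fit of all groups called 3785 at day 7, 1189 against 2638 over time in ONP and 292 against 0 over time in ONH, where DESeq2 called 446 and 28 were called without the ONH libraries of high photoreceptor sum. Leaving out single libraries gave 1102 to 2379 genes at day 7, 1439 to 3214 over time in ONP, 0 to 167 over time in ONH and 22 to 318 for the difference of time changes.

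With the paired mice as a replicate block, Gas7 at day 30 (0.49) and the difference of time changes of Cyp1b1 (2.00) passed, and no other member call changed. Of the 7 ONH libraries, 3 correlated best with the ONP library of their own number. No paired analysis was possible for the other comparisons because the day 7 columns match the samples' labels by group only, and the numbers in their headers are not the replicate numbers of the titles. Pseudocounts were not varied, since no member fell below the filter.

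Scaling by library size alone moved the median log2 change of all genes by 0.11 at day 7, 0.11 over time in ONP and 0.15 for the difference of time changes. Under it Atxn2 turned to 0.105 at day 7, Optn to -0.006 over time in ONH and 0.017 in ONP, and, for the difference of time changes, Optn to 0.023, Foxc1 to 0.101 and Cav1 to 0.017. On the deposited log2 values Atxn2 turned to 0.014 at day 7, Optn to -0.001 over time in ONH and Foxc1 to 0.092 for the difference of time changes. Under limma-voom Cav2 turned to -0.019 over time in ONH and Six6 to 0.001 in ONP. Without the ONH libraries of high photoreceptor sum, Atxn2 turned to 0.013 at day 30 and to -0.264 for the difference of time changes, and over time in ONH Myoc turned to 1.042, Optn to -0.075, Foxc1 to 0.132, Cav2 to -0.13 and Gas7 to -0.076.

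Leaving out single libraries spanned 0 for these changes. At day 30 Cav2 ran from -0.041 to 0.168 and Atxn2 from -0.244 to 0.013. At day 7 Gas7 ran from -0.075 to 0.159, Atxn2 from -0.187 to 0.177, Tbk1 from -0.386 to 0.027 and Cav1 from -0.047 to 0.535. Over time in ONH Optn ran from -0.087 to 0.153, Cav2 from -0.076 to 0.156 and Gas7 from -0.064 to 0.119, and in ONP Cav2 from -0.018 to 0.199 and Six6 from -0.277 to 0.088. For the difference of time changes Atxn2 ran from -0.117 to 0.289, Foxc1 from -0.337 to 0.37, Cav2 from -0.05 to 0.183, Optn from -0.253 to 0.021 and Cav1 from -0.518 to 0.048.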
